A study of Mus musculus with 16 samples.

Results

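Peroxiredoxins and glutathione peroxidases are the enzymes that reduce hydrogen peroxide and lipid hydroperoxides inside cells. Their transcripts were examined in cultured brain endothelial cells, isolated from the cortex of *APOE3* and *APOE4* mice. The members are 10 genes, listed by name, among 39057 gene identifiers in the count table. They were grouped by the compartment their proteins are best known for. The endoplasmic reticulum (ER) group holds Prdx4, Gpx7 and Gpx8. The mitochondrial group holds Prdx3 and Prdx5, and the cytosolic group Prdx1, Prdx2, Prdx6, Gpx1 and Gpx4. Prdx5 protein is also found in peroxisomes and cytosol, and Gpx4 has a mitochondrial form, so the grouping follows 1 main location for each.

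The cells came from targeted replacement mice of both sexes aged 21 to 28 days, in which human *APOE* stands under control of the mouse promoter, so every cell carries the human gene and cell types that use that promoter express it. Both genotypes carry a human allele in place of the mouse gene. There were 8 cultures per genotype (4 male, 4 female), each from the cortex of 1 brain, selected with 8 µg/ml puromycin, grown to confluence and not treated further. Polyadenylated RNA was sequenced, and the 16 libraries held 12717847 to 18624417 counted reads, with no difference in depth by genotype beyond the spread (two-sided exact permutation test over 12870 assignments, n = 8 and 8, p = 0.758).

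Human *APOE* was read in every library, with 15504 to 22318 counts in *APOE3* and 7672 to 14722 in *APOE4*, and the mouse gene never exceeded 290 counts. Xist had 10267 to 13325 counts in females and at most 12 in males, and Ddx3y 606 to 868 in males and 0 in females, as the labels require. Summed brain endothelial markers made up 25377 to 28022 CPM (counts scaled to a common library size) across libraries of both genotypes. Other cell types were far lower. Dpt, P2ry12, Itgam, Olig1 and Olig2 had 0 counts in every library, and Aqp4, Slc1a2, S100b, Lum, Cx3cr1, Mog, Mag and Snap25 never exceeded 3. *APOE4* replicate 35 had the fewest reads, the lowest human *APOE* count and the highest cell cycle score, and it held the highest level of 9 of the 10 peroxidases. The results of the members are given with and without it.

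As background, peroxidases of both families attack peroxide with 1 reactive residue. In the typical peroxiredoxins that residue is a cysteine, which is oxidized and then reduced again through a partner cysteine and thioredoxin. Gpx1 and Gpx4 use selenocysteine, an amino acid inserted at a UGA codon that would otherwise stop translation, and take electrons from glutathione. Gpx7 and Gpx8 have cysteine instead and hand oxidizing power to protein disulfide isomerases. Prdx4 does the same in the ER, where the oxidase Ero1 makes hydrogen peroxide while disulfide bonds form in secreted proteins. In brain endothelium, which secretes basement membrane and forms the blood-brain barrier, these enzymes are part of the redox defence of the vessel wall.

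The coding sequences around that residue show both chemistries. For Prdx5 and Prdx6 the codon was not located here, and the sequences of the other members are given. They are the sense strand, 5′ to 3′, of GENCODE M21 transcripts on GRCm38, and the capitals mark the codon of the reactive residue:
Prdx4: ttcacctttgtgTGTccaactgaaatcatc
Prdx1: tttacttttgtgTGTcccacggagatcatt
Prdx2: ttcacttttgttTGCcccacggagatcatc
Prdx3: ttcacatttgtgTGTcctacagaaattgtt
Gpx7: gtagctagcgaaTGTggcttcacagaccag
Gpx8: gtggctagtgacTGCcgcttcacagacaag
Gpx1: gtcgcgtctctcTGAggcaccacgatccgg
Gpx4: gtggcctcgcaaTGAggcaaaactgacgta

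These codons are number 127 in Prdx4, 52 in Prdx1, 51 in Prdx2, 109 in Prdx3, 56 in Gpx7, 79 in Gpx8, 47 in Gpx1 and 129 in Gpx4. They are counted from the start codon of the longest coding transcript of each gene. For Gpx4 that transcript codes for 253 residues, and other forms of the protein can number the codon differently. Gpx1 and Gpx4 each had 1 in-frame TGA within their coding sequence, and Gpx7 and Gpx8 had 0. Prdx4 shared 24 of the 30 bases of this window with each of Prdx1, Prdx2 and Prdx3. Gpx7 shared 24 of 30 with Gpx8 but 15 with Gpx1 and 16 with Gpx4. Over the aligned residues of the proteins, Prdx4 was 66.2% identical to Prdx1, 67.2% to Prdx2 and 57.1% to Prdx3. Gpx7 was 48.4% identical to Gpx8, 44.8% to Gpx4 and 39% to Gpx1. Despite this likeness, 0 stretches of 50 bases, the read length, were shared between any transcript of Prdx4, Gpx7, Gpx8, Prdx3 or Gpx1 and another gene of the annotation.

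Levels were first set in order per exon length, as CPM per kb of exon over all 16 libraries. Exon length is the union of the exons of all annotated transcripts, from 1048 bases for Gpx8 to 4804 for Prdx6. The transcripts in these cells may be shorter, so the order depends on that choice. In CPM alone, Prdx6 (means 84.1 in *APOE3* and 97.1 in *APOE4*) lay above Gpx7 (28.8 and 35.8). Gpx1, the abundant cytosolic glutathione peroxidase, was highest with 176 ± 16.3 CPM per kb (SD, n = 16). Gpx4, which reduces lipid hydroperoxides in membranes, followed with 87.1 ± 5.46, and the ranges of these members did not overlap each other or those below. Prdx1 (43.5 ± 4.02) and Prdx2 (32.3 ± 2.57), the main cytosolic peroxiredoxins, came next, and Prdx1 exceeded Prdx2 in 16 of 16 libraries. The next places could not be ordered beyond the spread. Gpx7 had 25.1 ± 4.78, Prdx4 24.2 ± 4.77 and Prdx5 23.6 ± 3.29 CPM per kb, and Gpx7 exceeded Prdx4 in 10 of 16 libraries and Prdx4 exceeded Prdx5 in 9. Prdx6, a peroxiredoxin with a single catalytic cysteine that also acts as a phospholipase, had 18.9 ± 2.76. Mitochondrial Prdx3 had 16.9 ± 1.65, and Prdx6 was above it in 11 of 16 libraries. Gpx8, a membrane-anchored ER protein, was lowest with 2.83 ± 1.03 CPM per kb, from 28 to 89 counts per library, and its highest library lay below the lowest of every other member.

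**Figure D1:**
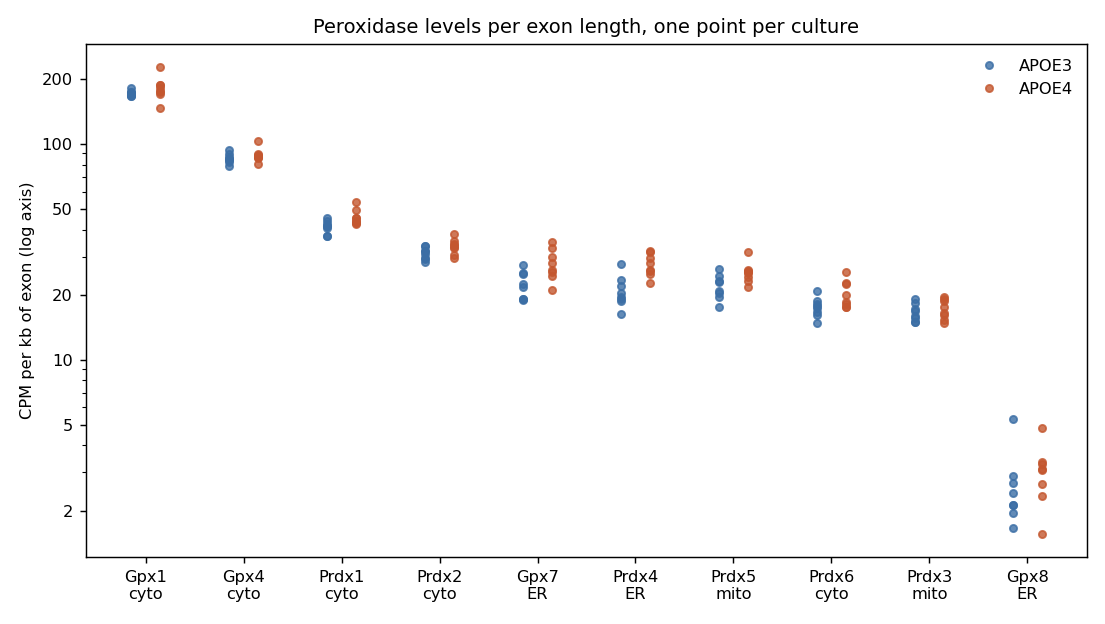
CPM per kb of exon on a log axis for each peroxidase, ordered by its mean, with 1 point for each of the 16 cultures and colour for genotype. Gpx1 (176) and Gpx4 (87.1) stood clear at the top and Gpx8 (2.83) at the bottom, while Gpx7, Prdx4 and Prdx5 lay together at 25.1, 24.2 and 23.6.

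By compartment, summed CPM per kb was 45.8 ± 6.46 in *APOE3* and 58.3 ± 7.94 in *APOE4* for the ER members, 38.5 ± 2.69 and 42.5 ± 3.96 for the mitochondrial members, and 347 ± 13.1 and 368 ± 36.5 for the cytosolic members (SD, n = 8 each). The ER members made up 9.28 to 12.3% of the summed level of all 10 in *APOE3* libraries and 11.5 to 13.8% in *APOE4* libraries. The cytosolic share was 78.8 to 82.1% in *APOE3* and 77.0 to 79.1% in *APOE4*. These shares are descriptions, rest on the same union exon lengths and overlap between genotypes.

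The genotype comparison asked which peroxidases differ between *APOE4* and *APOE3* cells. The ER members Prdx4 and Gpx7 were higher in *APOE4* brain endothelial cells, and no mitochondrial or cytosolic member passed the test. Neither call held when a score of proliferation genes was added to the fit, and in that fit 0 of all genes tested were called. By edgeR's quasi-likelihood test with Benjamini-Hochberg adjustment over all 12481 genes tested, 2 of the 10 members were called at 0.05, both higher in *APOE4*. Over all genes tested, 12.8% were called in either direction and 6.71% were called as higher in *APOE4*, so 2 of 10 stands beside a high background. All 10 passed the filter on low counts. The count of called members was 1 without *APOE3* replicate 26, 28, 30 or 33 or *APOE4* replicate 35, 40 or 41, 4 without *APOE4* replicate 43 and 5 without *APOE3* replicate 31. Calls over all genes, 1597 in the main fit, rose and fell with this count. They ran from 846 to 1184 in the fits with 1 called member. Dropping *APOE4* replicate 43 raised them to 1854, and dropping *APOE3* replicate 31 to 2127. Whether the count of members changed more than that of all genes was not tested. All 10 members had a log2 fold change above 0, from 0.044 to 0.40 with a median of 0.17. Of all genes tested, 49.9% lay above 0 and their median was -0.00022. Every such value is the log2 of the *APOE4* over the *APOE3* level and is called the log2 difference from here on. At an unadjusted p under 0.05 there were 6 of 10 members and 29.0% of all genes. In bulk RNA, a change in the cells that make up a culture and a change in RNA per cell cannot be told apart.

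**Figure D2:**
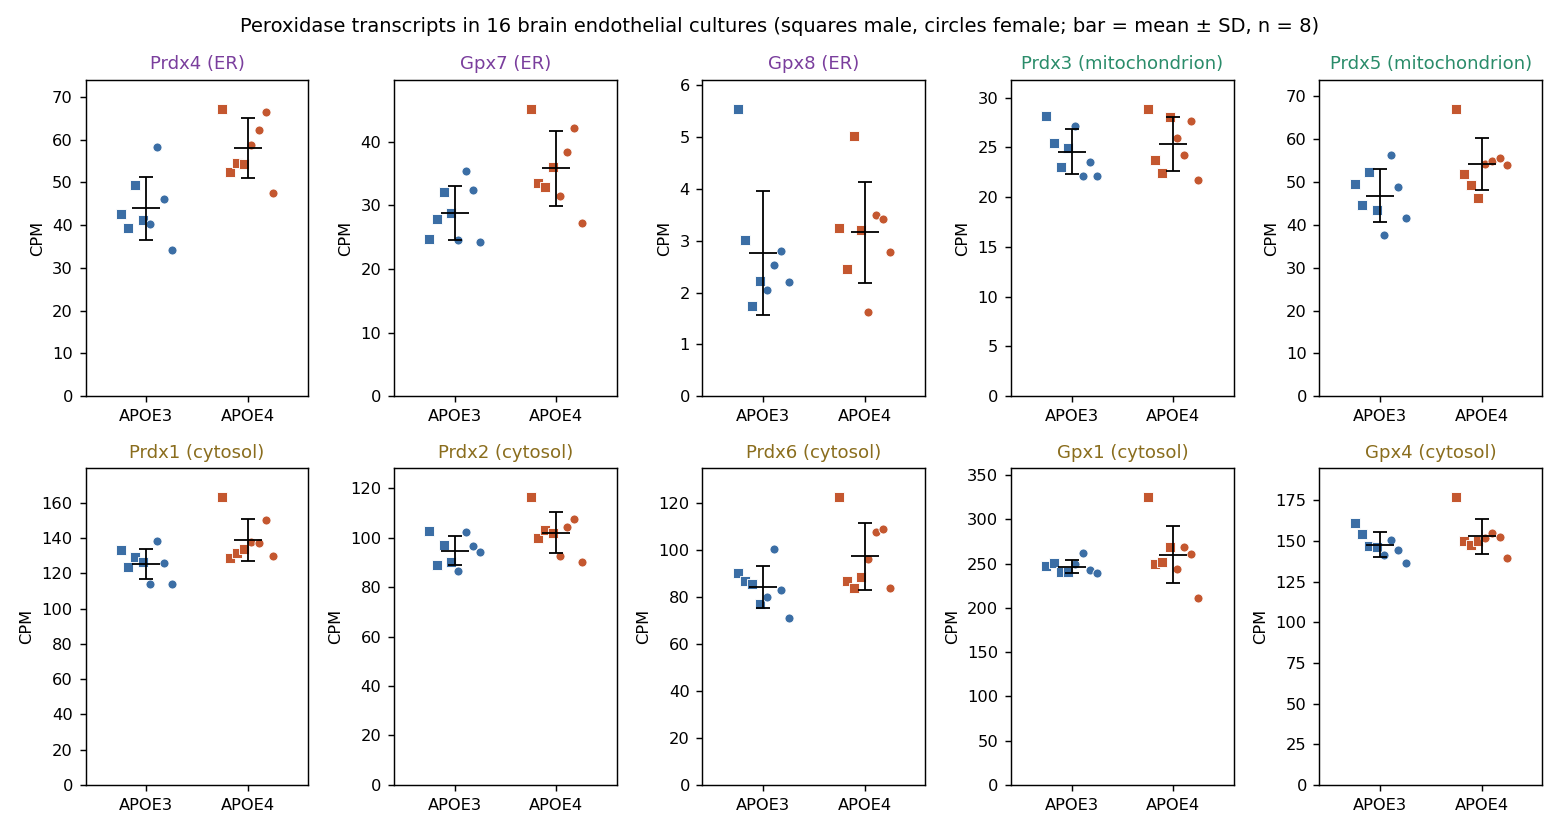
CPM of each peroxidase in every culture, squares for males and circles for females, with the mean and SD of 8 cultures per genotype as black bars and each axis starting at 0. Prdx4 and Gpx7 sit higher in *APOE4* (means 58.0 and 35.8) than in *APOE3* (43.9 and 28.8), while Gpx4 and Prdx3 overlap almost fully.

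Prdx4 is the ER peroxiredoxin, a decamer that turns hydrogen peroxide into disulfide bonds (ENSMUSG00000025289.15, chromosome X from 155323918 to 155340754, minus strand). Its level in *APOE3* libraries was 34.1 CPM at the lowest, 41.9 at the median and 58.4 at the highest, and in *APOE4* libraries 47.4, 56.7 and 67.3. The *APOE3* median was exceeded in 8 of 8 *APOE4* libraries and the highest *APOE3* library in 4, but the groups overlapped, with *APOE3* replicates 27 (49.4) and 31 (58.4) above the lowest *APOE4* library. The means were 43.9 ± 7.41 and 58.0 ± 6.98 CPM (SD, n = 8), 32.0% higher in *APOE4*, with a log2 difference of 0.40 (SE 0.0899, edgeR adjusted p = 0.00986). Its call held in 16 of 16 fits that each left out 1 library, with adjusted p from 0.00155 to 0.0267. The call was lost when a cell cycle score, the mean of 40 proliferation genes, entered the fit (log2 difference 0.049, edgeR adjusted p = 0.894), where 0 of all genes were called. Without *APOE4* replicate 35 its log2 difference was 0.37 (adjusted p = 0.0203).

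Gpx7 is a soluble glutathione peroxidase of the ER lumen that oxidizes protein disulfide isomerase (ENSMUSG00000028597.11, chromosome 4 from 108400390 to 108406961, minus strand). It was read at 24.3, 28.3 and 35.4 CPM (lowest, median and highest) in *APOE3* and at 27.1, 34.7 and 45.2 in *APOE4* libraries. Here 7 of 8 *APOE4* libraries exceeded the *APOE3* median, 4 lay above every *APOE3* library, and replicates 36, 37, 39 and 43 lay within the *APOE3* range. The means were 28.8 ± 4.22 and 35.8 ± 5.90 CPM (SD, n = 8), with a log2 difference of 0.32 (SE 0.0979, edgeR adjusted p = 0.0383). This call was close to the threshold and held in 7 of 16 fits that each left out 1 library. It was lost without *APOE3* replicate 25, 26, 28, 30 or 33 or *APOE4* replicate 35, 38, 40 or 41, with adjusted p from 0.0524 to 0.0893, and without replicate 35 it was 0.0802 at a log2 difference of 0.26.

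Gpx8, the membrane-bound relative of Gpx7 (ENSMUSG00000021760.3, chromosome 13 from 113042753 to 113046410), was scarce and varied widely between cultures, and no difference larger than that spread was found. Its level was 1.73, 2.38 and 5.55 CPM (lowest, median, highest) in *APOE3* and 1.63, 3.24 and 5.03 in *APOE4*. The highest and the lowest of all 16 libraries were *APOE3* replicate 25 and *APOE4* replicate 39. Its log2 difference was 0.19 (SE 0.228, adjusted p = 0.622), and it was 0.42 without *APOE3* replicate 25 (adjusted p = 0.155) and 0.19 without *APOE4* replicate 35 (adjusted p = 0.678). The spread within a genotype was 43.4% of the mean in *APOE3* and 30.9% in *APOE4*, against 16.9% and 12.0% for Prdx4.

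The ratios among the ER members were tested directly. On log2(CPM + 1), Prdx4 exceeded Gpx7 by 0.59 ± 0.117 in *APOE3* and 0.69 ± 0.106 in *APOE4* (SD, n = 8), a difference of 0.096 (two-sided exact permutation test, p = 0.110, adjusted p = 0.329 over 3 ratios). The ratio of Prdx4 to Gpx8 differed by 0.24 (exact permutation, adjusted p = 0.409) and that of Gpx7 to Gpx8 by 0.14 (exact permutation, adjusted p = 0.526). No ER member was therefore shown to differ from another in its change with genotype, and whether the ER members differ from the mitochondrial or cytosolic ones was not tested.

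**Figure D3:**
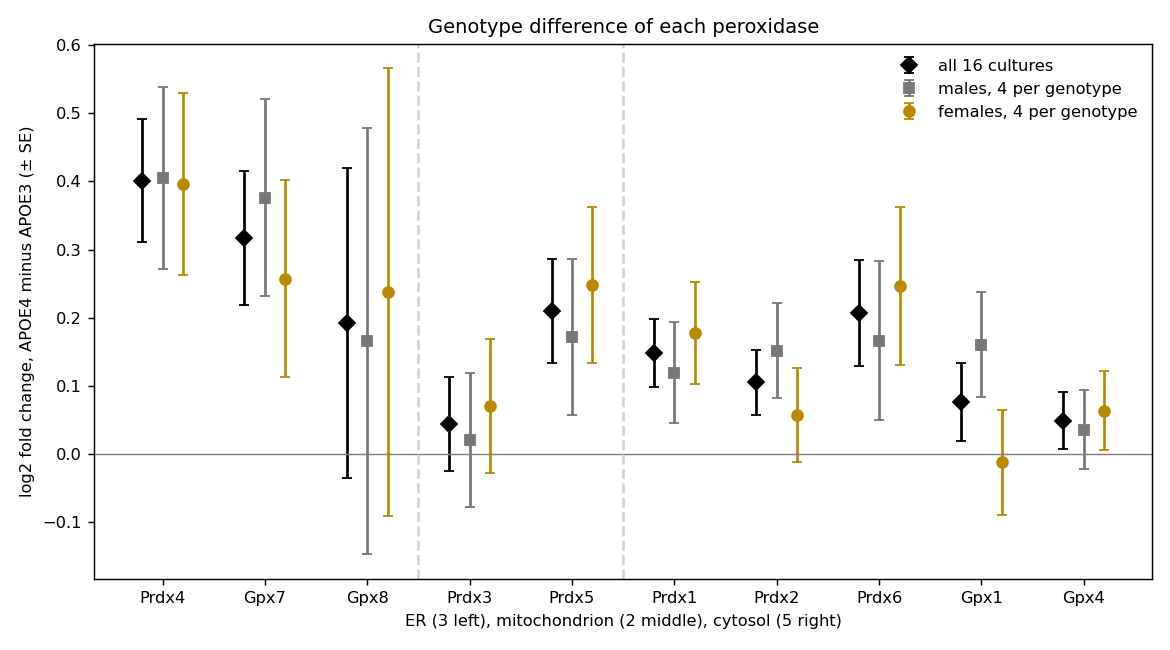
Log2 difference of each peroxidase, *APOE4* minus *APOE3*, with its standard error, for all 16 cultures and for males and females alone, ordered as ER, mitochondrion and cytosol. Prdx4 (0.40) and Gpx7 (0.32) lie highest and Gpx8 has the widest error (SE 0.228), while the male and female values of Prdx4 nearly coincide at 0.41 and 0.40.

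Of the mitochondrial members, Prdx3, the matrix peroxiredoxin and main peroxide scavenger of that compartment (ENSMUSG00000024997.7, chromosome 19 from 60864051 to 60874556), had nearly the same level in both genotypes. Its levels were 22.1, 24.2 and 28.1 CPM (lowest, median, highest) in *APOE3* and 21.8, 25.1 and 28.9 in *APOE4*, with a log2 difference of 0.044 (SE 0.0683, adjusted p = 0.715) and of 0.016 without *APOE4* replicate 35. Prdx5, an atypical peroxiredoxin that also reduces peroxynitrite (ENSMUSG00000024953.16, chromosome 19 from 6906697 to 6910106), ran from 37.5 to 56.4 CPM in *APOE3* (median 46.8) and from 46.4 to 67.2 in *APOE4* (median 54.1). In 7 of 8 *APOE4* libraries it lay above the *APOE3* median, but the log2 difference of 0.21 (SE 0.0769, adjusted p = 0.0751) missed the threshold, and without *APOE4* replicate 35 it was 0.16 (adjusted p = 0.151). Of the exon bases of Prdx5, 19.1% overlap Trmt112 on the opposite strand, a gene with 239 to 317 counts. The strand setting of the counting is not given in the sources used here, so reads of that overlap cannot be assigned with certainty.

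Of the cytosolic members, the 3 peroxiredoxins stood nearer the threshold than the glutathione peroxidases. Prdx1 (ENSMUSG00000028691.12, chromosome 4 from 116685544 to 116700822), a peroxide sensor as well as a scavenger, had 114, 126 and 138 CPM (lowest, median, highest) in *APOE3* and 129, 136 and 163 in *APOE4*. All 8 *APOE4* libraries exceeded the *APOE3* median, and the log2 difference was 0.15 (SE 0.0504, adjusted p = 0.0572). DESeq2's Wald test called it (adjusted p = 0.0438), with 1958 calls over all genes against 1597 in the main fit. The edgeR test called it without *APOE3* replicate 25 or 31 or *APOE4* replicate 36 or 43, with adjusted p from 0.0275 to 0.0496. Without *APOE4* replicate 35 its adjusted p was 0.109.

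Prdx6 (ENSMUSG00000026701.15, chromosome 1 from 161240112 to 161251219) had 71.1, 84.1 and 100.1 CPM in *APOE3* and 83.7, 92.2 and 122 in *APOE4*, with a log2 difference of 0.21 (SE 0.0782, adjusted p = 0.0839) and of 0.15 without *APOE4* replicate 35 (adjusted p = 0.170). The 3 *APOE4* libraries above every *APOE3* library were replicates 35, 40 and 41, and the other 5 lay within the *APOE3* range. Prdx2 (ENSMUSG00000005161.15, chromosome 8 from 84969587 to 84974834), abundant in red cells and neurons, had 86.6, 95.4 and 103 CPM in *APOE3* and 90.3, 102 and 116 in *APOE4*, with a log2 difference of 0.10 (SE 0.0481, adjusted p = 0.153) and of 0.076 without *APOE4* replicate 35 (adjusted p = 0.292). Of its exon bases, 5.80% overlap Rnaseh2a and 5.67% Junb on the opposite strand. Leaving out *APOE3* replicate 31 brought Prdx5 and Prdx6 under the threshold, as did leaving out *APOE4* replicate 38 for Prdx5 and *APOE4* replicate 43 for Prdx6. The adjusted p was then at most 0.0478 for Prdx5 and 0.0494 for Prdx6.

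The selenium-dependent Gpx1 and Gpx4 had the smallest differences of the cytosolic members. Gpx1 (ENSMUSG00000063856.7, chromosome 9 from 108338903 to 108340343) was read at 240, 245 and 262 CPM in *APOE3* and at 211, 256 and 325 in *APOE4*. *APOE4* cultures lay on both sides of the *APOE3* range, so the spread was 12.3% of the mean in *APOE4* and 3.01% in *APOE3*. Its log2 difference was 0.076 (SE 0.0573, adjusted p = 0.403) and 0.024 without *APOE4* replicate 35. Gpx4 (ENSMUSG00000075706.10, chromosome 10 from 80047166 to 80056439) had 136, 146 and 161 CPM in *APOE3* and 139, 151 and 177 in *APOE4*, with a log2 difference of 0.049 (SE 0.0423, adjusted p = 0.476) and of 0.017 without *APOE4* replicate 35. Of the 50-base stretches of Gpx4 transcripts, 34.7% are also found in another gene, mostly the pseudogene Gpx4-ps2, which had 80 to 127 counts, so part of its reads may not have been counted uniquely. The same share, with both strands searched, was 15.5% for Prdx5, 12.0% for Prdx2, 8.81% for Prdx1 and 0.156% for Prdx6. For Prdx5 all of it was shared with Trmt112, the opposite-strand overlap given above. For Prdx2 it included Junb and Rnaseh2a, which also overlap it on the opposite strand. No member had groups without overlap, where 0.625% of all genes did.

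Other genes of these families were largely silent. Gpx2, Gpx5 and Gpx6 had 0 counts in every library, and Prdx6b at most 1. Gpx3, the secreted plasma glutathione peroxidase, was read at 1779 to 2688 counts and had a log2 difference of 0.055 (SE 0.0780, adjusted p = 0.685).

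The comparison was repeated within each sex, 4 cultures per genotype. No member passed in either sex. Of all genes, 0% were called within males and 0% within females by edgeR's 4-group fit. At an unadjusted p under 0.05 there were 3 of 10 members and 14.2% of all genes in males, and 4 of 10 members and 19.5% of all genes in females. Prdx4 in males was 42.6, 39.2, 49.4 and 41.1 CPM in *APOE3* and 67.3, 52.5, 54.6 and 54.4 in *APOE4*, without overlap, as 7.98% of all genes were within males. In females it was 40.3, 58.4, 46.1 and 34.1 in *APOE3* and 58.9, 62.2, 66.4 and 47.4 in *APOE4*, where *APOE3* replicate 31 reached into the *APOE4* range. The log2 differences of Prdx4 were 0.41 in males (SE 0.134, adjusted p = 0.221) and 0.40 in females (SE 0.133, adjusted p = 0.124), and those of Gpx7 0.38 (SE 0.145, adjusted p = 0.260) and 0.26 (SE 0.144, adjusted p = 0.335). Without *APOE3* replicate 31, the *APOE3* culture with the highest Prdx4, Prdx4 was called in females (log2 difference 0.55, SE 0.119, edgeR adjusted p = 0.0160). In the other 15 fits that each left out 1 library, 0 members were called in females. The share of all genes called without that culture is not given here.

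Gpx7 in males was 24.6, 27.8, 32.2 and 28.8 CPM in *APOE3* and 45.2, 33.4, 32.9 and 36.0 in *APOE4*, again without overlap but with the nearest cultures at 32.2 and 32.9. Prdx4 and Gpx7 were the 2 of 10 members without overlap in males, beside 7.98% of all genes. In females there were 0 of 10, beside 9.34% of all genes. Gpx7 in females was 24.6, 35.4, 32.4 and 24.3 in *APOE3* and 31.5, 38.4, 42.2 and 27.1 in *APOE4*, with overlap. The difference of the genotype effect between sexes was tested as an interaction. It called 0% of all genes and 0 of 10 members, and at an unadjusted p under 0.05 it held 0 members and 2.76% of all genes. For Prdx4 the female effect minus the male effect was -0.0092 (SE 0.189) and for Gpx7 -0.12 (SE 0.204). Gpx1 had the log2 difference that moved most with sex, 0.16 in males and -0.012 in females (difference -0.17, SE 0.109).

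Females against males gave 0 of 10 members called and 0.0721% of all genes, which were 9 sex-linked genes. Again 0 members and 4.41% of all genes had an unadjusted p under 0.05. Prdx4 lies on the X chromosome, and its level in females minus males was 0.046 on the log2 scale (SE 0.0914). Gpx8 had the widest sex difference of the ER members, -0.35 (SE 0.220).

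The partner genes of these enzymes were read from 8 lists with 77 genes tested, of which 15 were called by genotype, 10 higher and 5 lower in *APOE4*. Over all genes tested these shares were 12.8% called and 6.71% called as higher. All 20 tested genes of ER oxidative folding had a log2 difference above 0 (median 0.14, from 0.011 to 0.22), against 49.9% of all genes. Of these 20, 7 were called as higher, 0 as lower and 13 did not pass. The 7 were Pdia3 (0.17, SE 0.0356, adjusted p = 0.00824), Dnajc10, an ER disulfide reductase (0.18, adjusted p = 0.0189), the sulfhydryl oxidase Qsox1 (0.18, adjusted p = 0.0247), Tmx4 (0.16, adjusted p = 0.0485), P4hb, the classic protein disulfide isomerase (0.15, adjusted p = 0.0331), Pdia4 (0.15, adjusted p = 0.0410) and Pdia6 (0.14, adjusted p = 0.0451). The Ero1 oxidases, which feed peroxide to Prdx4, had log2 differences of 0.15 for Ero1l (adjusted p = 0.0565) and 0.22 for Ero1lb (adjusted p = 0.123). The count of 7 fell to 2 without *APOE3* replicate 30 or *APOE4* replicate 41, to 3 without *APOE3* replicate 28 or 33 or *APOE4* replicate 35 or 40, and to 4 without *APOE3* replicate 26 or *APOE4* replicate 39. Pdia3 and Dnajc10 were called in 16 of 16 of these fits, Qsox1 in 13 and P4hb in 9. The fits with 2 called folding genes also had the fewest calls over all genes, 853 (replicate 30 dropped) and 846 (replicate 41 dropped). With the cell cycle score in the fit, 0 of the 20 and 0 of all genes were called, and the median of the 20 was 0.019.

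**Figure D4:**
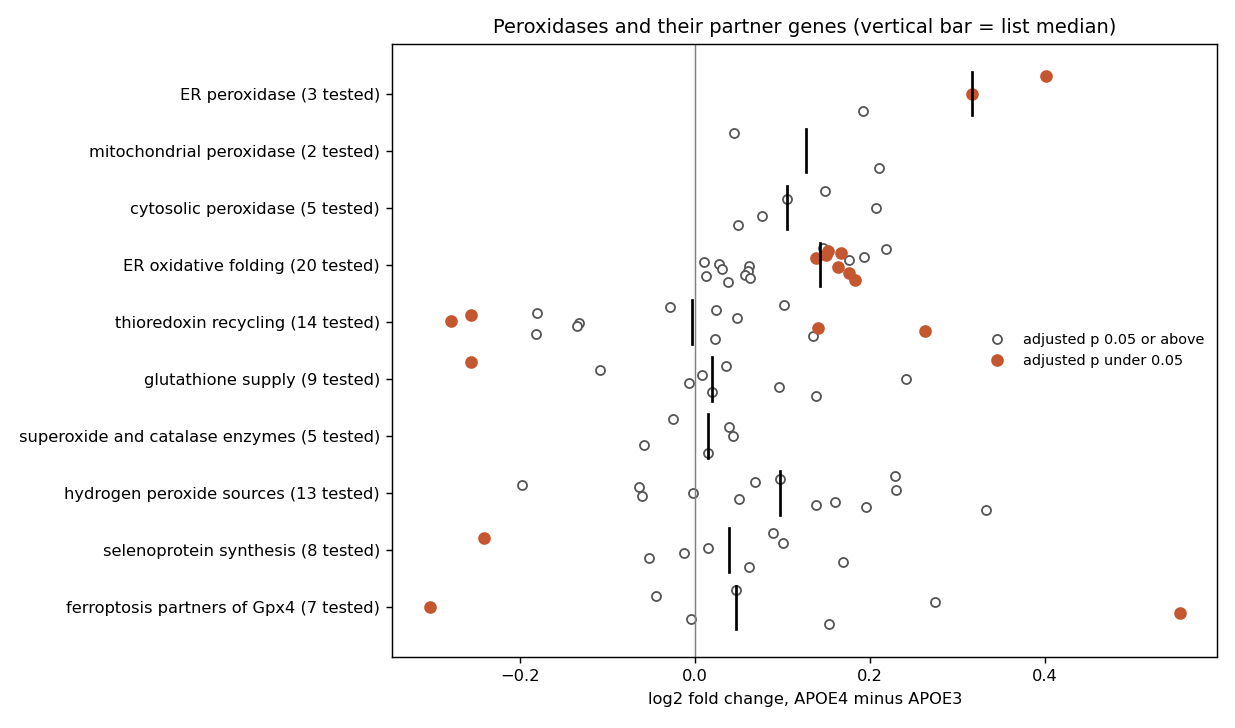
Log2 difference, *APOE4* minus *APOE3*, of every tested gene in the 3 peroxidase groups and 7 partner lists, filled where the adjusted p was under 0.05, with the list median as a vertical bar. All 20 ER oxidative folding genes lie above 0 with a median of 0.14, while thioredoxin recycling is split around a median of -0.0031.

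The thioredoxin system, which reduces oxidized peroxiredoxins, was split, with 2 genes higher and 2 lower of 14 tested and a median log2 difference of -0.0031. Txnip, the thioredoxin-binding inhibitor, fell from 1035 ± 93.7 to 853 ± 89.5 CPM (log2 difference -0.28, SE 0.0638, adjusted p = 0.0106) and lay below the *APOE3* median in every *APOE4* library. Txnrd3, a thioredoxin and glutathione reductase best known from testis, fell as well (-0.26, adjusted p = 0.0146). Glutaredoxin, Glrx, rose by 0.26 on the log2 scale (adjusted p = 0.0462) and Sesn3, a sestrin, by 0.14 (adjusted p = 0.0461).

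Among 9 genes of glutathione supply 1 was called, the catalytic subunit of the rate-limiting synthesis step, Gclc, which fell from 75.0 ± 3.95 to 62.7 ± 3.64 CPM (log2 difference -0.26, SE 0.0408, adjusted p = 0.00423). Among 8 genes of selenoprotein synthesis 1 was called, Secisbp2, which binds the RNA element that recodes the UGA of Gpx1 and Gpx4, and which fell from 38.2 ± 2.11 to 32.3 ± 2.16 CPM (-0.24, SE 0.0472, adjusted p = 0.00643). Of the ferroptosis partners of Gpx4, 2 of 7 tested were called. Slc3a2, the heavy chain of the cystine importer and other amino acid carriers, fell (-0.30, SE 0.0702, adjusted p = 0.0111), and Alox12, a lipoxygenase at 23 to 61 counts, rose (0.55, SE 0.151, adjusted p = 0.0222). Alox15 had 0 counts in every library. None of the 5 superoxide and catalase enzymes and none of the 13 tested hydrogen peroxide sources was called, with medians of 0.015 and 0.097. The NADPH oxidase subunit Cybb and Duox1 had 0 counts throughout, and Pipox at most 2.

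A cell cycle score, the mean log2 CPM of 40 proliferation genes, was on average higher in *APOE4* libraries and was read beside the levels of the members. It ranged from 4.89 to 5.92 in *APOE3* and from 5.64 to 6.42 in *APOE4* libraries, and 37 of its 40 genes were called as higher in *APOE4* (median log2 difference 0.63). The 2 libraries with the highest score in their genotype, *APOE3* replicate 31 and *APOE4* replicate 35, also had the highest Prdx4 and Gpx7 of their genotype. Not every member followed. Prdx3 was highest in *APOE4* replicate 35 (28.9 CPM), but in *APOE3* replicate 31 it was 22.2 CPM, near the lowest *APOE3* culture (22.1). Gpx8 was highest in *APOE3* replicate 25. Once the score entered the fit beside genotype, the log2 difference of Prdx4 was 0.049 (SE 0.0620, adjusted p = 0.894) and that of Gpx7 -0.056 (SE 0.0785, adjusted p = 0.908). No member, no partner gene and 0 of all genes were called in that fit, and 8 of the 10 members then had a value below 0. The scores of the genotypes overlapped only between 5.64 and 5.92.

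**Figure D5:**
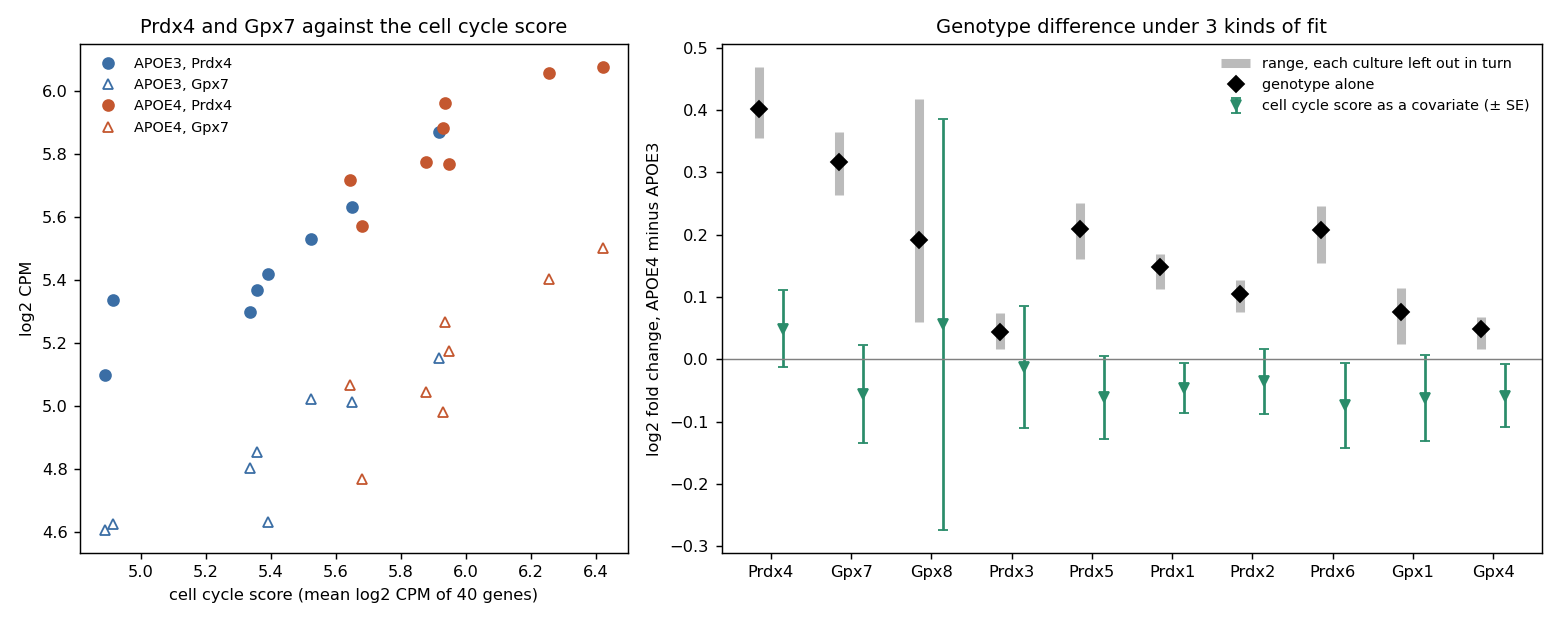
Left, log2 CPM of Prdx4 (circles) and Gpx7 (triangles) in each culture against the cell cycle score, coloured by genotype. Right, log2 difference of each peroxidase from genotype alone (diamonds), its range when each culture is left out in turn (grey bars), and with the score added to the fit, with its SE (green triangles), where Prdx4 goes from 0.40 to 0.049 and Gpx7 from 0.32 to -0.056.

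Markers of other cell types that the cultures could hold are given beside this. Of 9 tested pericyte and smooth muscle genes 0 were called, with a summed level of 193 to 362 CPM in *APOE3* and 227 to 345 in *APOE4*. Of these 9, 8 had a log2 difference above 0, with a median of 0.25. Of 5 tested fibroblast genes 1 was called, Fbln1 (log2 difference 0.90, adjusted p = 0.00542), and the summed level was 24.9 to 75.4 CPM in *APOE3* and 28.2 to 106 in *APOE4*. Here 4 of the 5 lay above 0, with a median of 0.33. Of 23 endothelial markers, Emcn was higher (0.14, adjusted p = 0.0106) and Slco1c1 lower (-0.31, adjusted p = 0.0472). Among the 23, 7 lay above 0, with a median of -0.057. The tested astrocyte (2), microglia and macrophage (2), oligodendrocyte (1) and neuron (2) genes gave 0 calls. The part of other cells in the levels of Prdx4 and Gpx7 was not tested.

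Likeness between members was described as Pearson's r of log2 CPM over the 16 libraries after each genotype's mean was subtracted, which leaves the depth and state of each culture in it. Prdx4 and Gpx7 went together (r = 0.86), and Prdx4 was also close to Prdx6 (0.84) and Prdx1 (0.81). Gpx8 (0.019) and Prdx3 (0.18) did not follow it. Among all tested genes, Gpx7 held place 168 in likeness to Prdx4, and Prdx4 place 125 in likeness to Gpx7.

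The 5 genes most like Prdx4 were Aurkb (r = 0.96), the kinase of the chromosomal passenger complex, the mitotic kinesins Kif14 (0.95) and Kifc1 (0.94), and Tceal9 (0.94) and Bex3 (0.94). All of them were called as higher in *APOE4*, with log2 differences from 0.48 to 0.61. The 5 most like Gpx7 were Fn1, fibronectin (r = 0.97), Sun2, of the nuclear envelope (0.95), Ace, the angiotensin-converting enzyme (0.94), Pimreg, a mitotic regulator (0.94), and Csf1, the macrophage growth factor (0.94). Fn1, a secreted disulfide-bonded matrix protein, had a log2 difference of 0.33 (adjusted p = 0.0200), and Sun2 was the 1 among these 5 that was not called (0.10, adjusted p = 0.251).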

How the data were processed

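Poly(A) RNA-seq of 16 cultures was analysed. The deposited file holds raw read counts per gene, which the authors made with STAR and featureCounts on mm10 with human *APOE* from hg38, per the labels; versions, annotation release and strand setting are not given in the sources used here. Reads of 50 bases after 17 PCR cycles carry no molecular identifiers, so depth covers counting error only. Every column was mapped by its label (0 left out). Identifiers were given symbols, exons and coordinates from GENCODE M21 (38872 of 39056 mouse identifiers matched; Gpx8 and Prdx5 by identifier without version). Coding sequences were read from GRCm38, and their translations were aligned in pairs with Biopython 1.88.

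Counts were fitted in R 4.3.3 with edgeR 4.0.16 (filterByExpr by genotype, TMM, quasi-likelihood F test, genotype alone, threshold 0.05, SE as the fold change over the square root of F). Sex effects came from a 4-group fit and from genotype plus sex. CPM used TMM-scaled library sizes. Alternatives were DESeq2 1.42.0 size factors and Wald test, limma 3.58.1 voom, no filter, a minimum of 10 counts per library, the cell cycle score or sex as a covariate, GC and length splines with 5 degrees of freedom, and each library left out. ER ratios used a pseudocount of 1 CPM, or 0.1. The fits were tested on simulated counts. Named are the 10 members, the called genes of each list (at most 6, except ER folding, where the seventh, Pdia6, and both Ero1 oxidases were named after their values were seen), list genes with at most 3 counts, the 5 genes most like Prdx4 and Gpx7, Xist, Ddx3y and human *APOE*. Members and lists were chosen with earlier results of these data known. The labels give 1 brain per culture. Figures were drawn in Python 3.11.15 with matplotlib 3.10.9.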

Additional observations from a re-analysis of the deposited data

Results flagged for a closer look

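Each member was screened in both genotypes for a culture lying far from the rest (the gap to its nearest neighbour over the whole range, above Dixon's limit of 0.526 for 8 samples), which made 20 groups, and chance gives about 1 in 20. There were 3 such values. Gpx8 in *APOE3* replicate 25 was 5.55 CPM with the next culture at 3.02. In *APOE4* replicate 35, Prdx5 was 67.2 CPM with the next at 55.7, and Gpx4 was 177 CPM with the next at 155. The interaction with sex called 0 members.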

How the results depend on the processing

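Prdx4 and Gpx7 were the 2 members called under DESeq2 size factors, no filter, at least 10 counts, sex as a covariate, GC and length correction and voom, and DESeq2's Wald test called 3. Calls over all genes in these fits ran from 1290 (no filter) to 1958 (DESeq2's Wald test), against 1597 in the main fit. With the cell cycle score added to the fit, 0 members, 0 of 77 partner genes, 0 ER folding genes and 0 of all genes were called. The log2 fold changes were then below 0 for Gpx7 (-0.056), Prdx3 (-0.012), Prdx5 (-0.061), Prdx1 (-0.046), Prdx2 (-0.035), Prdx6 (-0.074), Gpx1 (-0.062) and Gpx4 (-0.058), and that of Prdx3 also with GC and length correction (-0.016); the cause was not tested. Leaving out 1 library gave 1 to 5 members (5 without *APOE3* replicate 31), 8 to 17 partner genes, 2 to 7 ER folding genes, 846 to 2127 of all genes, 0 to 1 members in females, and 0 in males, for sex and for the interaction. The ER ratio differences then ran from 0.068 to 0.12 (Prdx4 to Gpx7), 0.12 to 0.33 (Prdx4 to Gpx8) and -0.0053 to 0.24 (Gpx7 to Gpx8, below 0 without *APOE3* replicate 25), and 0 were called. No paired analysis was possible because the groups share no replicate numbers. Gpx8 had the lowest depth, 28 to 89 counts, and the widest spread between cultures (43.4% and 30.9% of the mean).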
